A study of Homo sapiens with 21 samples.

Results

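The comparison sets 3 libraries of MM.1S cells labelled Aiolos knockdown against 3 labelled control knockdown, which are 6 of the 21 libraries of the series. The libraries were chosen by their labels, and the genes were those reaching 1 TPM in 3 or more of the 21 libraries, which kept 12559 of 17691 listed genes. TPM is a share of a library's transcripts, scaled by gene length so that every library has the same total. MM.1S is an established human multiple myeloma line from peripheral blood, and all groups share that line and its culture medium. Cells of the Aiolos group carried a lentivirus with a hairpin RNA against Aiolos for 72 h and received no drug. The sources used here do not give the sequence or number of the hairpins, nor what the control cells carried and for how long. Values of 5 further groups are set beside the comparison: untreated cells, cells with a hairpin against ARID2 for 72 h, and cells given pomalidomide at 1 µM for 24, 48 or 72 h. Each group had 3 libraries. The design places a hairpin against Aiolos next to a drug that removes the Aiolos protein.

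Aiolos, the product of IKZF3, is a zinc-finger DNA-binding protein of the Ikaros family that acts in lymphoid cells as a repressor at some genes and an activator at others. Ikaros (IKZF1) and Aiolos form dimers with each other. Pomalidomide makes the ubiquitin ligase receptor cereblon (CRBN) bind and degrade both. In myeloma, IRF4 and MYC are transcription factors on which the cells depend and which are known to fall when Ikaros proteins are lost.

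The targeted gene went against its label at the RNA level. IKZF3 (chromosome 17, 39757715 to 39864188, minus strand, GRCh38) was measured at 127, 121 and 141 TPM under the Aiolos knockdown label, against 83.5, 79.2 and 81.4 TPM in the control knockdown. The 3 libraries labelled Aiolos knockdown were all above the 3 controls, by 0.67 ± 0.05 on the log2 scale (difference of log2(TPM + 1) ± SE; limma adjusted p = 1.9e-10). Untreated cells held 96.4 ± 1.77 TPM (SD, n = 3), the ARID2 knockdown 120 ± 1.93 TPM and cells at 72 h of drug 112 ± 4.70 TPM. Protein was not measured here, so whether Aiolos protein fell cannot be read from these data. The 3 libraries are therefore called the Aiolos-labelled libraries throughout, and every direction below is drawn from a group whose targeted transcript was higher than in its control.

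Other family members were also higher than in the controls. IKZF5, a distant member, stood at 17.5, 17.97 and 18.6 TPM against 14.8, 14.9 and 14.2 TPM in the controls (0.28 ± 0.06, limma adjusted p = 0.00015), with no overlap. IKZF4, which encodes Eos, was higher by 0.35 ± 0.09, and IKZF2, which encodes Helios and lies near 1 TPM, by 0.41 ± 0.12. IKZF1 was at 41.0, 40.3 and 43.5 TPM against 38.9, 39.0 and 36.2 TPM, a difference of 0.13 ± 0.04 (adjusted p = 0.016). That call was lost with median-of-ratios scaling (0.07) and with quantile normalization (0.09), in a model of the 6 libraries alone (0.13), and without the third Aiolos-labelled library (0.09) or the third control (0.09). Against untreated cells IKZF1 was lower (-0.14). Of the 5 family members 3 were higher there and 1 did not pass, where 36.5% of all genes were higher and 35.7% lower. Of the other proteins near the drug's targets, ARID2 was at 23.2, 20.4 and 24.6 TPM against 26.0, 25.4 and 25.4 TPM (-0.17 ± 0.07, adjusted p = 0.030), CRBN differed by 0.23 ± 0.07 (adjusted p = 0.012), and the PBAF subunits PBRM1 (0.09 ± 0.06) and BRD7 (0.10 ± 0.06) did not pass. The ARID2 call was lost in 6 settings, among them without the second Aiolos-labelled library (-0.10) and without any 1 control library (-0.18 to -0.16). The CRBN call was lost without the second control library (0.18) and with quantile normalization (0.14).

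IRF4 was lower. IRF4 (chromosome 6, 391739 to 411447, plus strand) stood at 135, 129 and 146 TPM in the Aiolos-labelled libraries and at 619, 636 and 639 TPM in the controls. The groups lay far apart, with a difference of -2.20 ± 0.04 (limma adjusted p = 4.3e-20). Untreated cells held 469 ± 8.66 TPM, between the control and the Aiolos-labelled level, and the difference from untreated cells was -1.77 ± 0.04. The ARID2 knockdown was at 453 ± 7.09 TPM, so IRF4 also separated the Aiolos-labelled libraries from the other targeted hairpin (-1.72 ± 0.04, adjusted p = 1e-18). Under pomalidomide IRF4 was at 147 ± 3.70 TPM at 24 h and 229 ± 3.75 TPM at 72 h. MYC was at 335, 333 and 316 TPM against 368, 367 and 377 TPM, which is lower by a small amount (-0.18 ± 0.03, adjusted p = 3.9e-05). The ARID2 knockdown held less MYC, at 205, 199 and 200 TPM.

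**Figure D1:**
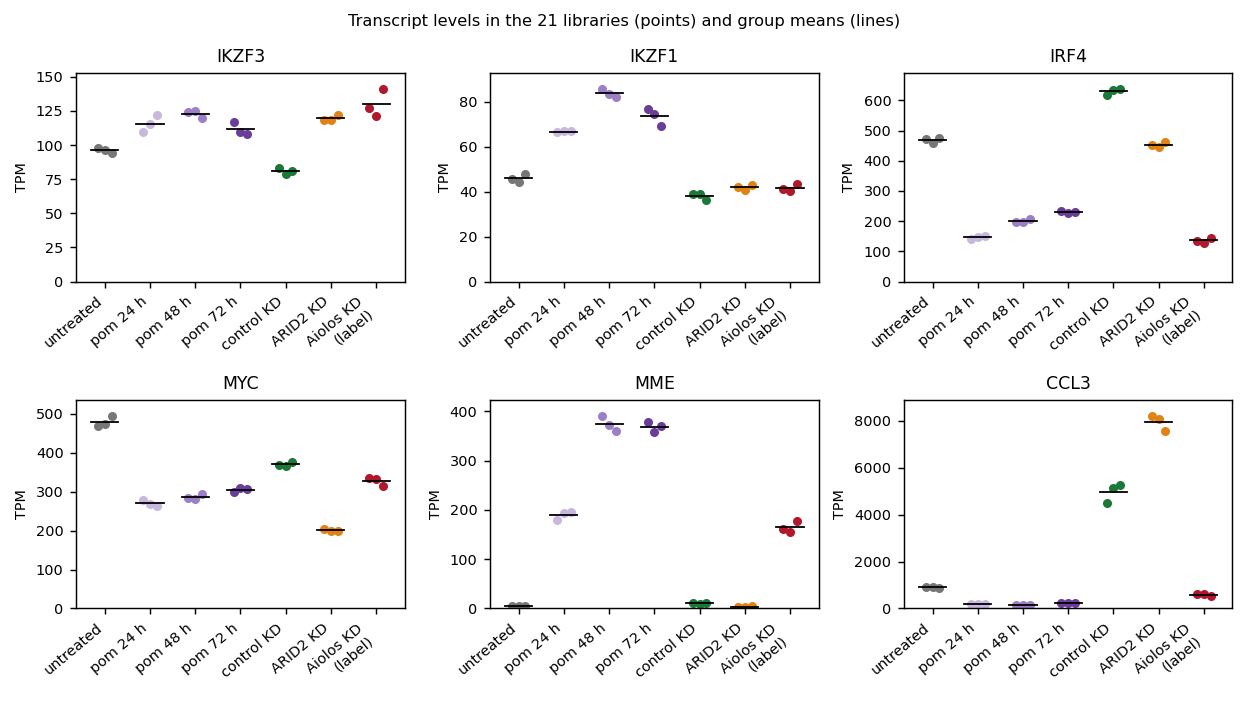
TPM (vertical axes, linear from 0) of 6 genes in each of the 21 libraries (points) with group means (lines), by group along the horizontal axis. IKZF3 is higher in the Aiolos-labelled libraries (121 to 141 TPM) than in the control knockdown (79.2 to 83.5 TPM), while IRF4 lies between 129 and 146 TPM there and at 619 to 639 TPM in the controls.

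The libraries of each group were close to each other. Correlation of log2(TPM + 1) across genes ran from 0.993 to 0.996 over the 6 pairs within the groups and from 0.960 to 0.962 over the 9 pairs between them, and no pair held identical values. Sequencing depth is unknown, because TPM keeps no record of it. All 9 plasma cell markers checked were above 1 TPM on average in both groups, and their summed level was 6709 to 7077 TPM in the Aiolos-labelled libraries and 11534 to 11735 TPM in the controls. Markers of most other cells were low in both groups: B cell markers (PAX5, MS4A1 and CD22, of which CD22 was at 0 in both groups) summed to 0.432 to 0.614 TPM against 0.159 to 0.225 TPM, T and NK markers to 1.43 to 1.82 TPM against 1.47 to 2.56 TPM with CD3D and CD3G at 0, and myeloid markers to 1.43 to 2.26 TPM against 0.867 to 3.59 TPM. Epithelial and stromal markers summed to 1.53 to 3.14 TPM against 1.22 to 2.63 TPM. Erythroid markers stood higher and differed between the groups, at 3.74 to 7.97 TPM against 13.2 to 19.9 TPM. Among them HBB had means of 4.01 TPM and 15.2 TPM. In bulk RNA, fewer cells of a type and less RNA per cell cannot be told apart.

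Of 12559 genes, 8522 passed in the comparison with the control knockdown (67.9%; limma with Benjamini-Hochberg adjustment, adjusted p under 0.05). Of these 4669 were higher (37.2% of genes) and 3853 lower (30.7%). The median difference over all genes was 0.05. At least 2-fold differences on this scale, which understates the change of genes with few transcripts, were found for 521 genes upward (4.15%) and 391 downward (3.11%). The split of the calls moved with scaling, from 54.8% higher to 48.8% with median-of-ratios scaling (4199 higher, 4400 lower) and 60.0% when the libraries were rescaled without mitochondrial and ribosomal protein genes (5162 and 3439). A list of genes is read below against these shares, since most genes moved.

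**Figure D2:**
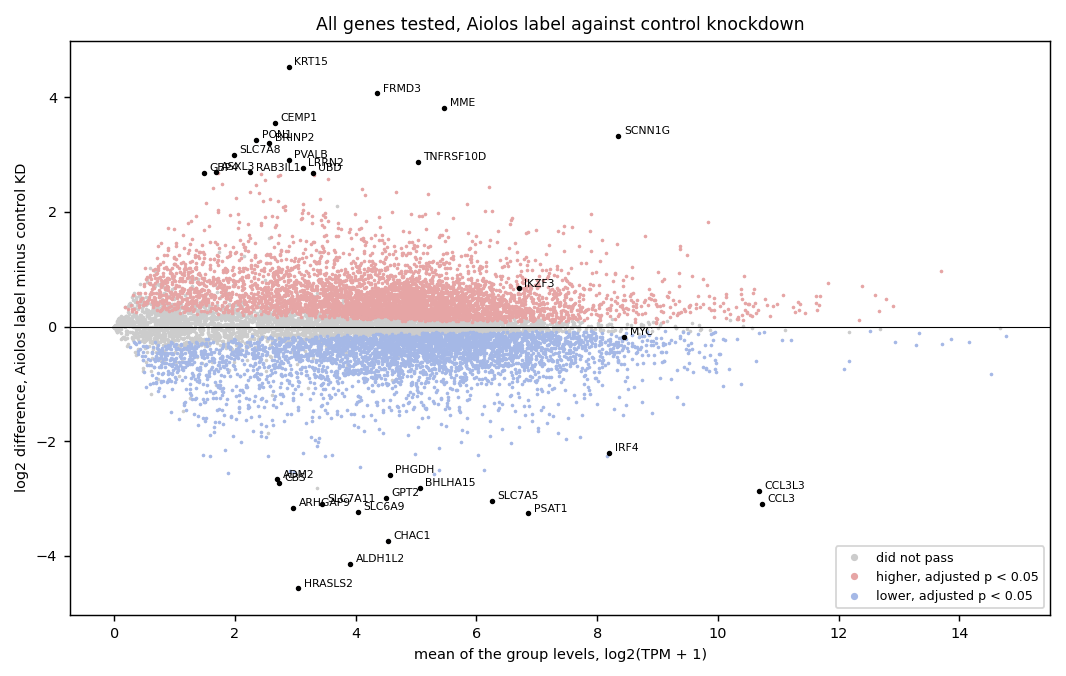
Log2 difference between the Aiolos-labelled libraries and the control knockdown (vertical axis) against the mean of the group levels on log2(TPM + 1) (horizontal axis), 1 point per gene for 12559 genes. Coloured points passed at an adjusted p under 0.05, and black points mark the 15 largest rises, the 15 largest falls, IKZF3, IRF4 and MYC; KRT15 lies highest at 4.53 and HRASLS2 lowest at -4.57.

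The 15 largest rises ranged from genes near 0 TPM in the controls to the abundant SCNN1G. KRT15, a keratin of basal epithelia, was at 35.7, 35.2 and 32.6 TPM in the Aiolos-labelled libraries against 0.764, 0.386 and 0.472 TPM (4.53 ± 0.10; chromosome 17, 41513743 to 41522529, minus strand). The ARID2 knockdown reached at most 1.71 TPM and untreated cells 0.699 TPM. The epithelial keratins KRT8, KRT18 and KRT19 had means of 0.118, 0.390 and 0.0944 TPM in the Aiolos-labelled group. FRMD3, a FERM-domain protein, was at 82.0, 76.6 and 89.9 TPM against 4.195, 4.30 and 3.52 TPM (4.07 ± 0.11). At 72 h of drug it did not differ detectably from untreated cells (0.00 ± 0.11), and the drug effect minus the Aiolos-labelled effect was -4.07 (adjusted p = 1.5e-14). SCNN1G, the gamma subunit of the epithelial sodium channel, was the most abundant of the 15 rises, at 1042, 1042 and 1016 TPM against 110, 97.8 and 99.3 TPM (3.33 ± 0.04).

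MME, which encodes the cell surface peptidase CD10, found on precursors of B cells, stood at 161, 156 and 178 TPM against 11.3, 10.0 and 10.9 TPM (3.82 ± 0.08, adjusted p = 1e-18). The ARID2 knockdown was below the same controls, at 3.65, 3.36 and 4.65 TPM (-1.27 ± 0.08). Pomalidomide raised MME further, to 369 ± 9.69 TPM at 72 h (5.87 ± 0.08), and the drug effect minus the Aiolos-labelled effect was 2.05 (adjusted p = 2.2e-12). Its promoter is shown because MME rose both with the Aiolos label and with the drug, and because Ikaros proteins bind DNA at sites with the core letters TGGGAA. The RefSeq promoter (GRCh38.p14, chr3:155079422-155079721, plus strand) reads 5′ to 3′ as follows, with that core in capitals.

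MME: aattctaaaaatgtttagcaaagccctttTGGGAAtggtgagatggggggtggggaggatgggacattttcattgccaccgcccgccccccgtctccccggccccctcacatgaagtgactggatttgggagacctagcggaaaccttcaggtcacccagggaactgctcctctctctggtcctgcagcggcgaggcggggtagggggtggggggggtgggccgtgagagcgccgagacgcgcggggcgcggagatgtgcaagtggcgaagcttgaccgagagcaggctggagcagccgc

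The core TGGGAA was found on either strand in 2211 of the 10147 kept genes with a RefSeq promoter of this length (21.8%). Among the 15 largest rises it was in 2 of 11 promoters (18.2%), those of MME and PVALB, and among the 15 largest falls in 1 of 10 (10.0%). A match is a description of these letters, not a site of binding, and these shares lie near the share of all promoters or below it.

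The other rises covered several kinds of genes. PON1, a paraoxonase, rose from 0.706, 0.592 and 0.655 TPM to 14.4, 14.5 and 15.4 TPM (3.26 ± 0.16). TNFRSF10D, a decoy receptor for the death ligand TRAIL, rose from 11.4, 11.02 and 10.9 TPM to 87.0, 85.6 and 89.2 TPM (2.87 ± 0.08). SLC7A8, an amino acid transporter of the L system, rose to between 9.42 and 10.5 TPM (3.00 ± 0.12). The calcium-binding protein PVALB (2.91), LRRN2 (2.76), the Polycomb-related ASXL3 (2.70), RAB3IL1 (2.69), BRINP2 (3.20) and the interferon-inducible GBP4 (2.69) and UBD (2.67) completed the list with CEMP1. CEMP1 is the least certain, at 9.09, 24.3 and 23.8 TPM against 0, 0 and 2.95 TPM (3.55 ± 0.90, adjusted p = 0.0016). Among the 15 rises, 14 were also higher than in the ARID2 knockdown, and UBD did not pass there (0.32 ± 0.29, adjusted p = 0.34). Against untreated cells all 15 were higher, with a median of 2.89. The ARID2 knockdown also had 12 of the 15 higher than the same controls, by less in the median (1.01 against 2.995). There MME was lower and 2 did not pass, and the median of all genes was 0.02. For 10 of the 15, the Aiolos-labelled libraries were above all 18 other libraries of the series, a pattern found for 7.18% of all genes; the 15 were ranked by their rise, so this describes them only.

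The 15 largest falls were in genes of several kinds. HRASLS2, a phospholipid-metabolizing acyltransferase, fell the most, to 0.594, 0.604 and 0.892 TPM from 42.6, 37.6 and 37.5 TPM (-4.57 ± 0.18). ALDH1L2, a mitochondrial folate enzyme, was at 2.75, 2.001 and 3.03 TPM against 53.1, 66.2 and 66.7 TPM (-4.14 ± 0.11). PSAT1 and PHGDH, of serine synthesis, fell by 3.26 ± 0.06 and 2.59 ± 0.08. SLC7A11, the cystine transporter, fell by 3.10 ± 0.09, SLC7A5, the large neutral amino acid transporter, by 3.04 ± 0.05, and SLC6A9, a glycine transporter, by 3.23 ± 0.10. GPT2 (-2.99), the cystathionine synthase CBS (-2.73), which has a near-identical copy, and the peptide hormone ADM2 (-2.67) were lower as well. ARHGAP9 (-3.17) and BHLHA15 (-2.82), a secretory cell transcription factor also called MIST1, fell too. The largest adjusted p among the 15 falls was 2.05e-11.

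The control libraries stand apart for these genes. All 15 of the largest falls were higher in the control knockdown than in untreated cells, by 0.42 to 3.73 (median 2.44), in a comparison where 17.3% of all genes were higher and 28.4% lower. Against untreated cells, 12 of the 15 were still lower in the Aiolos-labelled libraries and 3 missed the threshold, with a median of -1.04 in place of -3.09. The 15 were ranked by their fall from these same control libraries, a choice that favours genes high there. Their rise in the controls and the smaller median are therefore built in in part, and describe these genes only. CHAC1, which degrades glutathione and is a target of ATF4, gives the clearest case: 5.25, 5.44 and 5.36 TPM in the Aiolos-labelled libraries, 78.1, 83.0 and 89.8 TPM in the controls, and 5.49, 5.26 and 5.33 TPM in untreated cells. Its difference from the controls was -3.73 ± 0.09, while the Aiolos-labelled and untreated libraries overlapped (adjusted p = 0.99). SLC7A5 was at 122, 128 and 128 TPM in untreated cells and at 27.2, 25.7 and 23.9 TPM in the Aiolos-labelled libraries, below both (-2.26 ± 0.05 against untreated). All 15 falls were also lower than in the ARID2 knockdown (median -1.455), where 30.2% of all genes were lower. With the ARID2 hairpin 13 of the 15 were lower than in the same controls and 2 higher (median -1.69), where 29.2% of all genes were lower. The ranking favours both of these counts as well. What raised the 15 genes in the control libraries was not tested.

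The integrated stress response as a list showed the same. In this response ATF4, a transcription factor made when eIF2 is phosphorylated, raises genes for amino acid synthesis, transport and tRNA charging. Of 28 members kept, 26 were lower than in the controls, none was higher and 2 missed the threshold. The median was -1.43, and 20 were at least 2-fold lower. The background is 30.7% lower and a median of 0.05. In the controls against untreated cells 26 of the 28 were higher (median 0.98). In the Aiolos-labelled libraries against untreated cells, where 36.5% of all genes were higher and 35.7% lower, 17 were lower and 6 higher, with a median of -0.33. The ARID2 knockdown also had 23 of the 28 lower than the same controls and 2 higher (median -1.16), where 29.2% of all genes were lower. Directly against the ARID2 knockdown, 22 were lower and 2 higher in the Aiolos-labelled libraries (median -0.61), where 30.2% of all genes were lower.

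Single members of the response, chosen after their values were seen, moved in different ways. ATF4 itself was at 405, 432 and 414 TPM against 933, 983 and 1009 TPM (-1.22 ± 0.03), and at 457, 470 and 468 TPM in untreated cells. ASNS, asparagine synthetase, was at 27.6, 27.6 and 29.6 TPM against 142, 173 and 181 TPM (-2.50 ± 0.07) and was also below untreated cells (-0.72 ± 0.07). DDIT3, the stress factor CHOP, was lower than in the controls by a small amount (-0.41 ± 0.10) but higher than in untreated cells (0.96 ± 0.10).

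**Figure D3:**
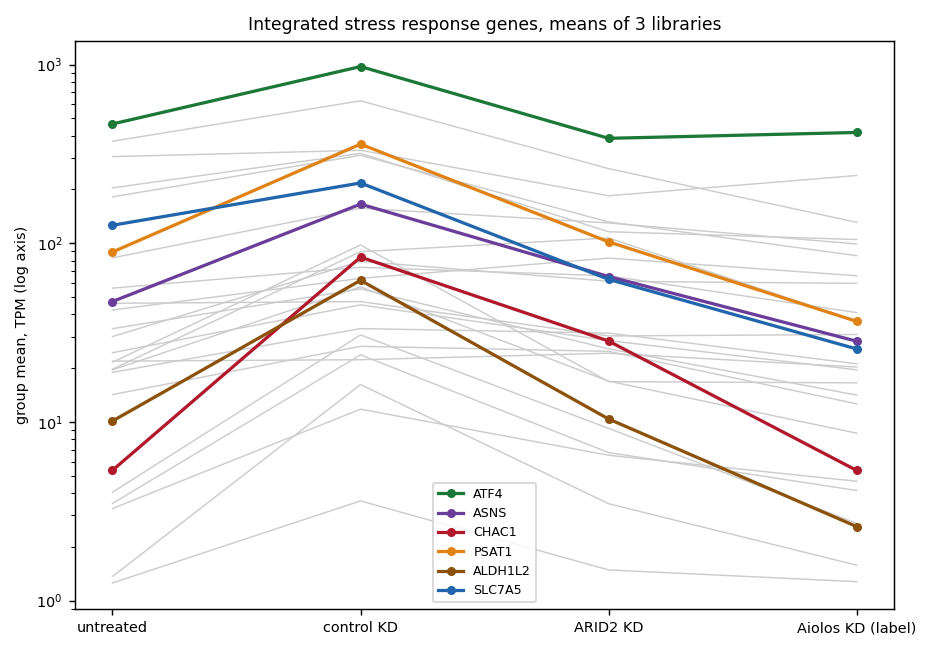
Group means of 3 libraries in TPM (vertical log axis) for the 28 kept genes of the integrated stress response in untreated cells, control knockdown, ARID2 knockdown and Aiolos-labelled libraries; 6 genes are coloured and the others are grey. CHAC1 stands at 83.6 TPM in the control knockdown and at 5.35 TPM in the Aiolos-labelled libraries, and 26 of the 28 genes are higher in the control knockdown than in untreated cells.

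Aminoacyl-tRNA synthetases, which load amino acids onto tRNA, were lower for 19 of 23 members, with 2 higher and 2 not passed (median -0.68). GARS was at 85.4, 88.3 and 94.5 TPM against 329, 368 and 359 TPM (-1.96 ± 0.04), followed by AARS (-1.92) and MARS (-1.75). Against untreated cells the median was -0.64 with 19 of 23 lower, although 12 of the 23 were higher in the controls than in untreated cells. With the ARID2 hairpin 15 of the 23 were lower than in the controls and 3 higher (median -0.37). The direct difference from the ARID2 knockdown was lower for 19 and higher for 1 (median -0.41). CHAC1 was higher in the controls than in untreated cells, with the Aiolos-labelled libraries at the untreated level. Its promoter is shown because it held the C/EBP-ATF response element core, TGATGCAA, to which ATF4 dimers bind (RefSeq, GRCh38.p14, chr15:40953221-40953520, plus strand). The capitals mark the core, which here lies on the opposite strand.

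CHAC1: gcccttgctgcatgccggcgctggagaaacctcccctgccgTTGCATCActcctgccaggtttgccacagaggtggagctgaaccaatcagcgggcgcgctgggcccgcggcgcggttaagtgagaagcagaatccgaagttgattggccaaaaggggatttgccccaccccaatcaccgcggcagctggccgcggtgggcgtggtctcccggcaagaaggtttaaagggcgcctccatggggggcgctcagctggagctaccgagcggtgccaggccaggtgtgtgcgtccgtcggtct

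Searched on both strands, TGATGCAA was in 51 of 10147 promoters (0.503%) and in 1 of the 24 stress response genes with a promoter entry, CHAC1. Only these exact letters within the promoter stretch were searched. Variant forms and sites elsewhere were not counted, so a missing match does not mean that a gene lacks the element.

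Most, but not all, plasma cell genes examined were lower in the Aiolos-labelled libraries. Plasma cells make and secrete antibody under IRF4, PRDM1 and XBP1, with a large endoplasmic reticulum. Of 14 plasma cell transcription factors 11 were lower, 1 higher and 2 did not pass (median -0.51), and IRF4 fell the most. CREB3L2, a membrane-bound factor that raises secretory genes, was at 30.8, 30.2 and 35.6 TPM against 92.9, 101 and 102 TPM (-1.59 ± 0.05). The member that rose was MAF, at 844, 813 and 844 TPM against 526, 497 and 501 TPM (0.71 ± 0.03).

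Secretory pathway and unfolded protein response genes were lower for 52 of 56 members, with 2 higher and 2 not passed (median -0.66). SSR1, a subunit of the translocon-associated complex, stood at 24.5, 24.8 and 28.0 TPM against 104, 108 and 108 TPM (-2.01 ± 0.04). In the controls 46 of the 56 were higher than in untreated cells (median 0.27), and the median of the Aiolos-labelled libraries against untreated cells was -0.35, with 42 lower. The ARID2 knockdown also had 52 of the 56 lower than the same controls and 2 higher (median -0.46), where 29.2% of all genes were lower. Directly against the ARID2 knockdown, 26 were lower and 15 higher in the Aiolos-labelled libraries (median -0.09). Among plasma cell markers 9 of 15 were lower, 3 higher and 3 did not pass (median -0.61), and the largest fall was in the prolyl isomerase FKBP11 (-1.85 ± 0.04). With the ARID2 hairpin 9 of the 15 markers were lower than in the controls as well and 4 higher (median -0.17). Defining surface markers were among those that rose under the Aiolos label. SDC1, which encodes the plasma cell marker CD138, was at 723, 757 and 660 TPM against 598, 588 and 617 TPM (0.24 ± 0.04, limma adjusted p = 1.6e-05), and CD38 was at 13.3, 11.4 and 13.5 TPM against 7.76, 7.89 and 7.77 TPM (0.64 ± 0.08, adjusted p = 3.1e-07). Against untreated cells CD38 was also higher (0.80 ± 0.08), and SDC1 differed by 0.05 ± 0.04. IGLL5, whose reads may come in part from the immunoglobulin lambda constant region it resembles, differed by -0.84 (means of 17669 and 31528 TPM).

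Surface proteins used as targets in myeloma split. GPRC5D, an orphan receptor, was at 45.7, 46.0 and 45.9 TPM against 177, 198 and 199.9 TPM (-2.04 ± 0.06). TNFRSF17, known as BCMA, was at 414, 429 and 444 TPM against 1098, 1091 and 1074 TPM (-1.34 ± 0.03), and SLAMF7 fell by 0.71. Against untreated cells these 3 were also lower, by -1.42, -1.15 and -0.39. More members rose than fell: of 22, 14 were higher, 4 lower and 4 did not pass (median 0.23). Beside CD38, IL6R, the receptor of interleukin 6, was at 690, 673 and 698 TPM against 479.9, 479 and 481 TPM (0.52 ± 0.02), and the adhesion molecule ICAM1 at 90.9, 96.7 and 86.6 TPM against 46.4, 43.7 and 47.2 TPM (0.98 ± 0.06). Both were also higher than in untreated cells, by 0.60 and 1.96. Genes under MAF in myeloma had 7 of 10 members higher, 1 lower and 2 not passed (median 0.53). The integrin ITGB7 was at 18894, 19516 and 17138 TPM against 9388, 9434 and 9632 TPM (0.96 ± 0.04), and CX3CR1, a chemokine receptor, at 22.7, 20.6 and 22.3 TPM against 4.43, 3.73 and 3.55 TPM (2.22 ± 0.06). CX3CR1 was lower in the controls than in untreated cells (-1.43 ± 0.06), and its difference from untreated cells was 0.79 ± 0.06.

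Genes of B cells earlier than the plasma cell stage were mostly higher at low levels, while PAX5, MS4A1 and CD22 stayed near 0 in the summed levels given above. Of 14 such markers 7 were kept, and 5 were higher, 1 lower and 1 did not pass (median 0.78). BACH2, a repressor of plasma cell differentiation, was at 18.8, 18.03 and 20.4 TPM against 7.30, 7.65 and 7.999 TPM (1.21 ± 0.06), and BCL6 at 1.26, 1.999 and 1.67 TPM against 0.438, 0.388 and 0.687 TPM (0.81 ± 0.13). The exception was CIITA, the activator of MHC class II, at 6.77, 6.04 and 6.61 TPM against 12.6, 12.8 and 12.2 TPM (-0.86 ± 0.07).

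Genes of DNA replication were lower almost without exception. S phase genes encode the helicase, polymerases and nucleotide enzymes that copy DNA, and many are under E2F transcription factors. Of 50 members 49 were lower and POLE did not pass (-0.00), with a median of -0.91 and 21 at least 2-fold lower. MCM6, of the replicative helicase, was at 66.9, 69.7 and 70.6 TPM against 230, 240 and 241 TPM (-1.77 ± 0.03). CDC6, which loads that helicase, was at 28.8, 27.6 and 27.2 TPM against 98.9, 102 and 99.6 TPM (-1.81 ± 0.06), and E2F1 at 67.7, 72.6 and 63.2 TPM against 219, 209 and 214 TPM (-1.64 ± 0.05). Against untreated cells all 50 members were lower as well (median -1.19). The ARID2 knockdown also had 40 of the 50 lower than the same controls and 2 higher (median -0.50), where 29.2% of all genes were lower.

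Promoters of MCM6, CDC6 and E2F1 are shown because each holds a site of the E2F factors, under which many members of the list are known to be. An E2F site was searched as TTTCCCGC or TTTGGCGC on both strands. It was in 18 of the 40 S phase genes with a promoter entry (45.0%), against 380 of 10147 promoters in all (3.74%). Because the list is rich in known E2F targets, this share describes the list and not the difference between the groups. Neither form contains the Ikaros core or the C/EBP-ATF core. The Ikaros core was in 11 of the 40 S phase promoters (27.5%, against 21.8% of all promoters). That of CDC6 is among them, and the core is not marked in it below. Capitals mark the site in the promoters of MCM6 (chr2:135876394-135876693, minus strand), CDC6 (chr17:40287629-40287928, plus strand) and E2F1 (chr20:33686336-33686635, minus strand), each from RefSeq on GRCh38.p14 and read 5′ to 3′ along the gene.

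MCM6: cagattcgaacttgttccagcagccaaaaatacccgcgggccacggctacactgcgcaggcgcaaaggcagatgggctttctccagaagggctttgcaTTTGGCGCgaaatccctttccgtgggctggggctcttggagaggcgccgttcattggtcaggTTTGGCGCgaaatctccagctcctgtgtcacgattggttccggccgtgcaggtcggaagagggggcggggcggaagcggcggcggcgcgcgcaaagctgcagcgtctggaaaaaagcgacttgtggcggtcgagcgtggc

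CDC6: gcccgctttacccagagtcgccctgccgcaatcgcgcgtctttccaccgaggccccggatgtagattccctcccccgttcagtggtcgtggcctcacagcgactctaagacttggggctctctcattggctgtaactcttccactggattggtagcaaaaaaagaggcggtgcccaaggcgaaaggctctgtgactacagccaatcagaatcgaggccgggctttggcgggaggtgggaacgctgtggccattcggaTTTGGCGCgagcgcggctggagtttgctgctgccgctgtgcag

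E2F1: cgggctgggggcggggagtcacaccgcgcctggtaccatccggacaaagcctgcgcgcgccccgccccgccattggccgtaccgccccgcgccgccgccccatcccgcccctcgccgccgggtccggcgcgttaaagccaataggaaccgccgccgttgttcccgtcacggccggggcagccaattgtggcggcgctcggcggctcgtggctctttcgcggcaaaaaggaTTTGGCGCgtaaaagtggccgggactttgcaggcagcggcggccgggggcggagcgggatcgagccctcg

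Each of these 3 promoters held TTTGGCGC, once in CDC6 and E2F1 and at 2 places in MCM6. POLE, whose level did not pass, also held an E2F site, so the site was not limited to members that fell.

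Mitotic genes were lower with a median nearer to 0. Of 60 G2/M members 56 were lower, 2 higher and 2 did not pass (median -0.55), with HMGB2, a chromatin protein, at 214, 219 and 229 TPM against 588, 562 and 556 TPM (-1.36 ± 0.03). In the ARID2 knockdown all 60 were lower than in the controls (median -1.26), where 29.2% of genes were lower. The direct difference went the other way: in the Aiolos-labelled libraries 55 of the 60 were higher than in the ARID2 knockdown (median 0.72), where 35.7% of all genes were higher and 30.2% lower. For S phase genes the direct difference was lower for 40 and higher for 5 of 50 (median -0.49). MYC targets were lower for 46 of 51 members, with 1 higher and 4 not passed (median -0.39). In the controls 46 of the 51 were already lower than in untreated cells (median -0.34). Set against untreated cells, 50 of the 51 were lower in the Aiolos-labelled libraries and 1 higher (median -0.75), where 35.7% of all genes were lower.

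Sterol and fatty acid synthesis followed a like course, with 28 of 32 members lower than in the controls, 2 higher and 2 not passed (median -0.59). SCD, the stearoyl desaturase, was at 280, 272 and 298 TPM against 805, 818 and 807 TPM (-1.51 ± 0.04), and INSIG1 fell by 1.54 ± 0.04. Both were lower still in the ARID2 knockdown (102, 100 and 106 TPM for SCD). In the direct difference 24 of the 32 members were higher in the Aiolos-labelled libraries and 3 lower (median 0.36).

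Cytosolic ribosomal protein genes rose together by small amounts. Of 79 members 76 were higher, 1 lower and 2 missed the threshold, with a median of 0.36, and none reached 2-fold. RPL13A stood highest in its difference, at 4726, 5027 and 4451 TPM against 2826, 2714 and 2805 TPM (0.77 ± 0.04). The share of listed TPM in these genes was 13.0% ± 0.383 (SD, n = 3) against 9.81% ± 0.103 in the controls, and the libraries did not overlap (exact two-sided permutation test, p = 0.1, the smallest possible with 3 against 3). The members were also higher than in untreated cells (76 of 79, median 0.47) and than in the ARID2 knockdown (75 of 79, median 0.37), whereas 64 of 79 were lower at 72 h of drug, where 48.1% of all genes were higher and 31.6% lower. Many near-identical copies of ribosomal protein genes exist, and how the quantifier shared reads among them is unknown. With quantile normalization 67 of the 79 were higher (median 0.31).

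Mitochondrial genes went the opposite way. Of 60 mitochondrial ribosomal protein genes 43 were lower, 3 higher and 14 did not pass (median -0.28), and of 75 oxidative phosphorylation genes 56 were lower, 7 higher and 12 did not pass (median -0.28). Mitochondrial mRNA took 15.7% ± 0.838 of listed TPM against 17.2% ± 0.373 in the controls (exact two-sided permutation test, p = 0.1, the smallest possible) and 15.5% ± 0.130 in untreated cells.

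**Figure D4:**
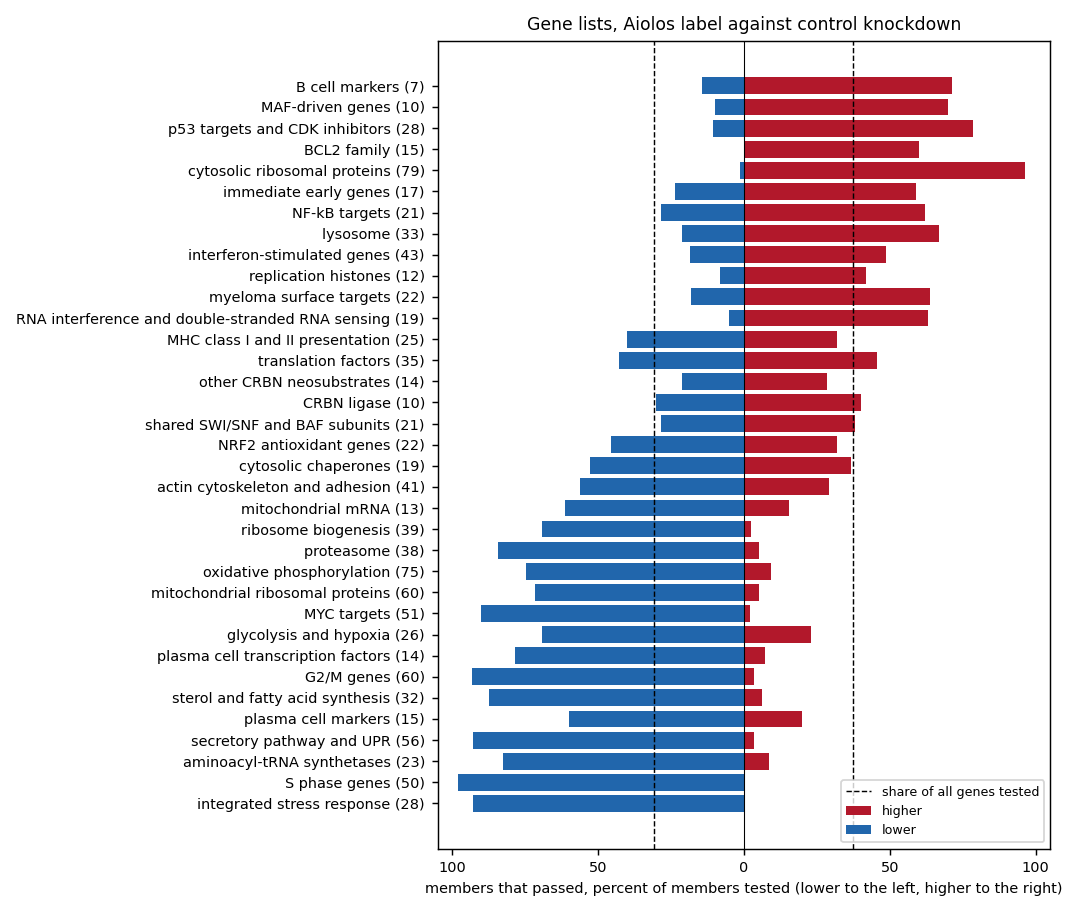
Share of tested members that passed (horizontal axis, percent; higher to the right, lower to the left) for each gene list with at least 7 members, ordered by its median log2 difference, with the number of members in brackets. Dashed lines mark the shares over all genes (37.2% higher, 30.7% lower); the integrated stress response and S phase lists have no member that was higher, and 96.2% of cytosolic ribosomal protein genes were higher.

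Genes that set cell survival were higher in part. Of 15 members of the BCL2 family 9 were higher, none was lower and 6 did not pass (median 0.36). BMF, a BH3-only protein that promotes death, was at 187, 186 and 184 TPM against 49.2, 49.5 and 48.7 TPM (1.90 ± 0.03), and BCL2L11, known as BIM, rose by 0.69 ± 0.04. BCL2L1, whose long form BCL-XL protects cells, rose too, at 735, 724 and 691 TPM against 370, 373 and 371 TPM (0.95 ± 0.03). At 72 h of drug BMF rose by 3.39 ± 0.03 and BCL2L1 did not pass (-0.06 ± 0.03), and the drug effect minus the Aiolos-labelled effect was 1.49 for BMF (adjusted p = 1.8e-16) and -1.01 for BCL2L1 (adjusted p = 3.8e-14). Untreated and control libraries did not differ detectably for either gene (BMF -0.03 ± 0.03, BCL2L1 0.01 ± 0.03).

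Targets of p53 and CDK inhibitors were higher for 22 of 28 members, with 3 lower and 3 not passed (median 0.53). The death receptor FAS was at 50.04, 45.9 and 49.8 TPM against 17.4, 18.6 and 18.4 TPM (1.37 ± 0.07). SESN2, also a stress response gene, was lower than in the controls at 37.6, 38.7 and 33.8 TPM against 86.7, 90.2 and 92.1 TPM, yet higher than in untreated cells (0.86 ± 0.06). The ARID2 knockdown had more of this list: in the direct difference 18 of 28 were lower in the Aiolos-labelled libraries and 8 higher (median -0.73).

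Inflammatory genes did not move in 1 direction. CCL3, a chemokine that myeloma cells secrete, was at 599, 600.3 and 540.2 TPM against 4498, 5126 and 5257 TPM (-3.09 ± 0.05). In untreated cells it was 910.1 ± 27.2 TPM, so the controls were higher than untreated cells by 2.44 ± 0.05 and the Aiolos-labelled libraries lower by 0.65. CCL3L3, a near-identical copy with which reads may be divided, gave -2.87 ± 0.07. The list of NF-kB targets, which includes CCL3, had 13 of 21 members higher, 6 lower and 2 not passed (median 0.31). Interferon-stimulated genes had 21 of 43 higher, 8 lower and 14 not passed (median 0.24, against 37.2% of all genes higher), with IFIT3 at 17.1, 17.5 and 17.8 TPM against 3.49, 3.02 and 3.02 TPM (2.15 ± 0.08).

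The direct comparison with the ARID2 knockdown shows where the hairpins differ without the control libraries. Of 12559 genes 8282 passed (65.9%), 500 at least 2-fold higher in the Aiolos-labelled libraries (3.98%) and 334 at least 2-fold lower (2.66%). The largest rises were MME (5.09 ± 0.08), KRT15 (3.83 ± 0.10), FRMD3 (3.69 ± 0.11), CREG1 (3.39 ± 0.03) and LGI2 (3.17 ± 0.05). CREG1, a lysosomal glycoprotein, was at 472, 461 and 480.1 TPM in the Aiolos-labelled libraries, 314, 315 and 316 TPM in the controls and 44.7, 40.7 and 46.7 TPM in the ARID2 knockdown. Against the controls it rose by 0.58 ± 0.03 under the Aiolos label and fell by 2.81 with the ARID2 hairpin. The largest falls were HRASLS2 (-3.91 ± 0.18), CCL3L3 (-3.86 ± 0.07), CCL3 (-3.78 ± 0.05), DKK1 (-3.49 ± 0.12), an inhibitor of Wnt signalling, and TMEFF1 (-3.03 ± 0.34). DKK1 was at 4.50, 4.26 and 3.70 TPM against 56.2, 54.4 and 59.95 TPM in the ARID2 knockdown.

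**Figure D5:**
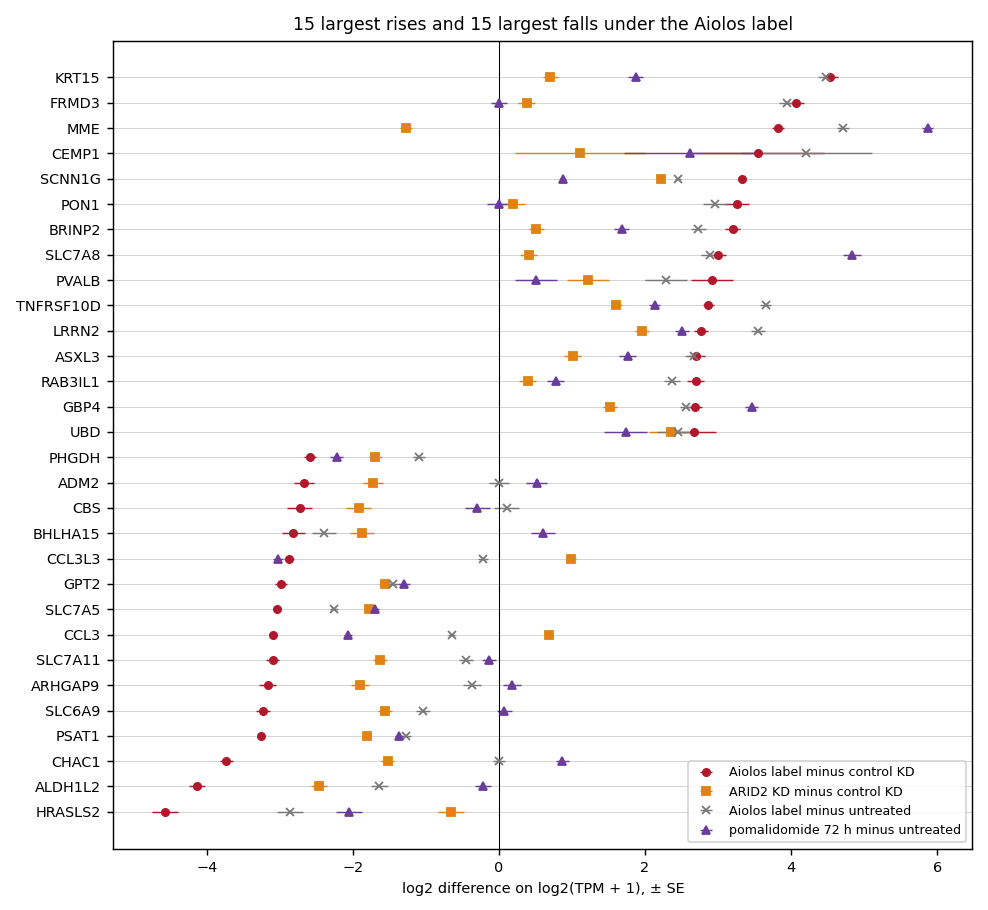
Log2 differences on log2(TPM + 1) with their standard errors (horizontal axis) of the 15 largest rises and 15 largest falls for 4 comparisons: Aiolos-labelled minus control, ARID2 knockdown minus the same controls, Aiolos-labelled minus untreated, and pomalidomide at 72 h minus untreated. CHAC1 lies at -3.73 against the controls and at -0.00 against untreated cells, while KRT15 lies at 4.53 and 4.47.

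The drug comparison shares no library with the comparison of Aiolos-labelled and control libraries. Across the 12559 genes, Pearson r between the 2 sets of log2 differences was 0.37 at 24 h, 0.48 at 48 h and 0.49 at 72 h; these describe the libraries, since genes are not independent replicates and all groups share the cell line. Pomalidomide against untreated cells gave calls for 66.1%, 78.7% and 79.8% of genes at the 3 times. At 72 h, 7219 genes were called in both comparisons, which is 84.7% of the calls under the Aiolos label and 72.1% of the drug's calls, and 80.4% of them had the same direction. The first 2 shares lie near, and above, those over all genes, 79.8% called with the drug and 67.9% under the Aiolos label. How often unrelated comparisons would share a direction was not tested. At 72 h of drug 48.1% of all genes were higher and 31.6% lower. Of the 15 largest rises 12 were higher at 72 h of drug and 3 did not pass. Of the 15 largest falls 7 were lower at 72 h of drug, 3 higher and 5 did not pass.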

How the data were processed

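The authors deposited 1 table of TPM for 21 libraries. TPM scales each gene by length and each library to the same total, so depth is unknown and a value is a share that can fall because other genes rose. Between 3.13% and 4.86% of each library lies in features not listed. Libraries were made with a TruSeq RNA kit, per the labels' protocols, and the build is hg38, per the submitters' processing notes; which aligner, quantifier and annotation were used is not given in the sources used here.

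Genes reaching 1 TPM in 3 or more libraries were analysed as log2(TPM + 1) in 1 model of all 21 libraries, with 7 group means (limma 3.58.1, R 4.3.3, empirical Bayes with trend, 14 residual and 5.28 prior degrees of freedom). Tests were two-sided, with Benjamini-Hochberg adjustment inside each comparison. The code was tested on simulated data. Libraries of a group are described as biological replicates with nothing on cultures or days, so a p-value measures only how these libraries spread. Replicate numbers did not pair them: same-numbered libraries had correlations of deviations of -0.01, -0.22 and -0.24.

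The text names a fixed set of genes (IKZF1 to IKZF5, ARID2, PBRM1, BRD7, CRBN, IRF4, MYC). To these it adds the 15 largest rises and 15 largest falls among genes that passed, did not overlap and reached 5 TPM in the higher group, passing over clone-like and readthrough symbols. It further adds the 5 largest in each direction against the ARID2 knockdown, and up to 4 members with the smallest p of each of 41 gene lists. SDC1, CD38, POLE, IGLL5 and the keratins of the marker check, like the stress genes said to be so, were chosen after their values were seen. The comparison, members and lists were chosen with earlier results of these data known. Alternatives were other pseudocounts, filters, scalings, a model of the 6 libraries alone, a replicate block, no trend, and each library left out. Gene positions are from GENCODE 29.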

Additional observations from a re-analysis of the deposited data

Results flagged for a closer look

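For 7 named genes the Aiolos-labelled and ARID2 knockdown libraries lay on opposite sides of the same controls, each past the threshold, and the direct difference of the groups (log2, Aiolos-labelled minus ARID2 knockdown) passed in limma. MME gave 5.09, with all Aiolos-labelled libraries above and all ARID2 knockdown libraries below the controls. CREG1 gave 3.39 and LGI2 3.17 with the same order of groups, and IKZF5 0.54. CCL3 gave -3.78, CCL3L3 -3.86 and DKK1 -3.49, with the ARID2 knockdown above the controls and the Aiolos-labelled libraries below them. CCL3 and CCL3L3 are near-identical copies and are not independent of each other.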

How the results depend on the processing

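Of 3157 values of the 198 named genes under the alternatives, 3118 kept direction and side of the threshold, 29 lost their call, 9 gained one and 1 reversed; 185 of the genes kept their call under every alternative run. The reversal was MT-CO2, at -0.16 in the reported model and 0.13 with quantile normalization (adjusted p = 0.136); the cause was not tested. Counts of genes called and of those called higher or lower stayed within 1.5 times under all alternatives run. Counts of 2-fold differences moved with the pseudocount, by its construction: 853 higher and 589 lower with 0.1, and 322 and 259 with 3. Leaving out 1 library at a time gave 8020 to 8299 genes called, 4407 to 4565 higher, 3578 to 3824 lower, 524 to 558 at least 2-fold higher and 381 to 413 at least 2-fold lower, and 7763 to 7963 called against the ARID2 knockdown. With the replicate number as a block, 8478 genes were called, 522 at least 2-fold higher and 393 lower, and 8225 against the ARID2 knockdown; the libraries share only a number. Medians of the lists of CRBN ligase genes, CRBN neosubstrates, PBAF subunits, BAF subunits, translation factors and MHC genes lay near 0 and changed sign with scaling. TPM gives no depth, so genes near 1 TPM have an unknown counting error.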

Other observations

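Genes of RNA interference and double-stranded RNA sensing were higher for 12 of 19 members, with 1 lower and 6 not passed (median 0.21, against 37.2% of all genes higher and a median of 0.05). Against untreated cells, where 36.5% of all genes were higher and 35.7% lower, 9 were higher and 5 lower (median 0.07). In the controls 8 of the 19 were lower than in untreated cells (median -0.14), where 28.4% of all genes were lower. AGO4, an Argonaute protein, was at 28.1, 28.2 and 29.04 TPM in the Aiolos-labelled libraries, 9.25, 9.75 and 9.37 TPM in the control knockdown and 21.5, 21.2 and 21.2 TPM in the ARID2 knockdown. Lysosome genes had 22 of 33 members higher, 7 lower and 4 not passed (median 0.30). CXCR4, the receptor that holds plasma cells in the marrow, was at 170.1, 173 and 176 TPM against 49.5, 53.5 and 45.4 TPM (1.79 ± 0.06), with 88.2, 85.9 and 87.6 TPM in untreated cells and a fall at 72 h of drug (-0.76 ± 0.06). HMOX1, haem oxygenase, was at 82.7, 81.8 and 76.7 TPM against 19.4, 19.3 and 20.3 TPM (1.98 ± 0.12), while the ARID2 knockdown held 94.4, 88.6 and 84.6 TPM.

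Beside these, PECAM1, an adhesion molecule of endothelium and of some blood cells, was at 2.39, 1.90 and 2.53 TPM in the Aiolos-labelled libraries, 16.5, 19.6 and 17.5 TPM in the controls and 5.19, 4.74 and 4.70 TPM in untreated cells. HBB, a globin gene, was at 3.74, 4.56 and 3.74 TPM against 13.2, 13.5 and 18.9 TPM.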
